A study of Mus musculus with 16 samples.

Results

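The genes described here are 10 of the liver X receptor pathway, out of 15871 entries in a table of read counts per gene. They were chosen by symbol, with earlier results of these data known. All 10 had a row in the table and were among the 13527 entries that had enough reads to be tested. They are the receptors Nr1h3 and Nr1h2, the cholesterol transporters Abca1 and Abcg1, the ubiquitin ligase Mylip, the transcription factor Srebf1, and the targets Lpcat3, Pltp, Smpdl3a and Arl4c. RNA was sequenced in bulk from peritoneal macrophages that a 6% starch injection had drawn into the cavity of wild-type C57BL/6 mice aged 8 weeks. The 16 libraries formed 4 groups of 4, each treated for 48 h in medium with 10% serum. H_O macrophages received 33 mmol/L glucose and oxidised low-density lipoprotein (ox-LDL), H_C macrophages received 33 mmol/L glucose without it, L_O macrophages were kept in low glucose with ox-LDL, and L_C macrophages were kept in low glucose with 27.5 mM mannitol as an osmotic control. Mannitol is not named for L_O, so a difference between L_O and L_C cannot be told apart from one of mannitol. H_O against L_O then has no named osmotic control either, and the high minus low glucose difference of the ox-LDL effect holds L_O against L_C, so glucose and osmolarity cannot be told apart in them. The labels give 50 mg/ml of ox-LDL, a unit in doubt. Ox-LDL brings cholesterol into the macrophages of atherosclerotic plaques, and the study's title names targets for atherosclerosis under high glucose as its aim. Whether replicates are separate mice or cultures is not stated, and p-values measure only the spread among these libraries, which may be technical.

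Liver X receptors (LXR) are nuclear receptors that bind oxysterols, the oxidised forms of cholesterol that build up when a cell takes in more sterol than it needs. LXR pairs with a retinoid X receptor on DNA elements made of a repeated unit with 4 bases between its copies (DR4) and switches on genes that export cholesterol, stop its uptake and remodel membrane lipids. In macrophages the pathway is known for passing cholesterol to lipoproteins outside the cell, through Abca1 to lipid-poor apolipoprotein A-I and through Abcg1 to high-density lipoprotein.

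The start regions of Abca1 and Srebf1 are shown because each holds a match to the DR4 motif given below. The windows run from 250 bases before to 50 after the start. Those of Mylip and Lpcat3 are shown because these genes had the largest ox-LDL differences of the 10, and no match was found there. Only exact letters were searched, so a DR4 element of other letters would be missed. Sequences are from RefSeq (GRCm38.p6), read 5′ to 3′ on the strand of the gene in lower case, with the match to the DR4 motif in capitals. The table of start regions held 11 entries for 8 of the 10 genes, with none for Abcg1 and Smpdl3a. The Abca1 window spans chr4:53159846-53160145 (minus strand), the Srebf1 window, at the last of its 3 listed starts, chr11:60210422-60210721 (minus strand), the Mylip window chr13:45389492-45389791 (plus strand) and the Lpcat3 window chr6:124662854-124663153 (plus strand).
Abca1: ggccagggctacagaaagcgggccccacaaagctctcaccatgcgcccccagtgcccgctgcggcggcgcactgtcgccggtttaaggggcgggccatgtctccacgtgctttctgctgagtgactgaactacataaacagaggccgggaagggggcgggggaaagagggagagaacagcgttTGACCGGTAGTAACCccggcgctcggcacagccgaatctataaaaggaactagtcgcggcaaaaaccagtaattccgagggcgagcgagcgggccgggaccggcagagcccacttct
Srebf1: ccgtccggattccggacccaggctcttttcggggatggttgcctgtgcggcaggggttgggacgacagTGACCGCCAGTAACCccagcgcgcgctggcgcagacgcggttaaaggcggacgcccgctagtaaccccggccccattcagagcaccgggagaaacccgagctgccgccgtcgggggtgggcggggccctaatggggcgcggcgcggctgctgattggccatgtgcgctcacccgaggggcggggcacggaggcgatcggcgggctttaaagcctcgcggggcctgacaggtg
Mylip: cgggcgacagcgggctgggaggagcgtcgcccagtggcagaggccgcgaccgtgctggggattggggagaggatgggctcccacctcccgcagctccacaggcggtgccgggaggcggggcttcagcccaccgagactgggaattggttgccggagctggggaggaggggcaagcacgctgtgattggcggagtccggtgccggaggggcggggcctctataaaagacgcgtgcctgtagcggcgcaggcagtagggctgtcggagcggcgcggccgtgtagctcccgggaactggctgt
Lpcat3: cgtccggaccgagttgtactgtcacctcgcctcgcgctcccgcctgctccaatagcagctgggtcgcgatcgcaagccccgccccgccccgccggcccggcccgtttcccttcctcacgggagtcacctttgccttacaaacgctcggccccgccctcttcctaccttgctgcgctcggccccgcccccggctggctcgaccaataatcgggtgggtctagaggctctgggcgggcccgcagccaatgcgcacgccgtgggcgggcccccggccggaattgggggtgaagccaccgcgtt

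The motif searched on both strands was GGTTACNNNNGGTCA, whose letters were chosen after the Abca1 and Srebf1 windows had been read, so that their matches are a description. It was found in 12 of 32851 windows (0.0365%), which belong to 9 genes. The stricter repeat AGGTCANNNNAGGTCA was found in 0.0152% of windows and in none of the entries for the 10 genes. Of the 9 genes with the motif, 5 had enough reads to be tested: Abca1, Srebf1, the fatty acid synthase Fasn, the acyl-CoA synthetase Acsl3, and Prrg4. The matches of the first 4 are given on the strand of each gene, with the fixed letters of the motif in capitals and its 4 free letters in lower case. These marks do not show where each copy of the repeated unit begins and ends. They lie 67 to 53 bases before the start in Abca1, 182 to 168 before it in Srebf1, 225 to 211 in Fasn and 112 to 98 in Acsl3.
Abca1: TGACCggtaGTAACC
Srebf1: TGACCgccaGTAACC
Fasn: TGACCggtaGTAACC
Acsl3: TGACCcataGTAACC
The 15 bases of Abca1 and Fasn are identical letter for letter. Of other motifs with fixed letters, CACGTG (E-box) was in 7.15% of windows and, of the 10 genes, in Abca1. TATAAA was in 13.6% of windows and began 29 bases before the start in Abca1 and 32 before it in Mylip, and lay 37 bases after it in Pltp. GGGCGG (GC box) was in 35.7% of windows, among them the 4 printed above, and TCACNCCAC (sterol element) was in 1.24% of windows and in none of the entries for the 10 genes.

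Macrophage identity was checked first. All 8 defining markers (Adgre1, Csf1r, Cd68, Lyz2, Itgam, Mertk, Fcgr1 and Spi1) had rows, and their summed level lay between 17396 and 20850 CPM (a gene's reads per 1000000 reads of its library, with totals scaled by edgeR's TMM factors). Most of this sum was Lyz2 (group means of 14097 to 15890 CPM), and other markers moved beside the 10 genes. Of the 8, 3 were higher and 1 lower in H_O against H_C, 1 higher and 3 lower in L_O against L_C, 1 higher and 3 lower in H_C against L_C, and 2 higher and none lower in H_O against L_O. Of all tested entries, 21.9%, 25.8%, 12.8% and 6.11% passed the same test in these comparisons, in that order. Csf1r had log2 fold changes of -0.46 in H_O against H_C and -0.49 in L_O against L_C, and Itgam 0.72 and 0.34. In H_C against L_C, Fcgr1 (-0.76), Adgre1 (-0.37) and Itgam (-0.36) were lower. Library totals lay between 32596640 and 41712885 reads. L_C replicate 4 stood apart, with 3.71% of its reads on mitochondrial genes where L_C replicates 1 to 3 had 1.48% to 1.95%. Calls of the 10 genes that change without this library are given with both values. For marker genes and the further lists of pathway genes, values without it are not given. In bulk RNA, fewer cells of a type and less RNA per cell cannot be told apart.

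Ox-LDL moved the pathway's genes in both directions. In high glucose Mylip, Lpcat3, Abca1, Arl4c and Smpdl3a were higher with ox-LDL, while Abcg1, Nr1h2 and Nr1h3 were lower. In low glucose Mylip, Lpcat3 and Smpdl3a were higher, Abcg1 and Nr1h2 were lower, and Abca1 did not pass the test. High glucose alone came with lower Abca1, Lpcat3 and Abcg1. A gene is called here at a Benjamini-Hochberg adjusted p of at most 0.05 over all 13527 entries by edgeR's quasi-likelihood test, from which all adjusted p-values come unless another test is named.

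**Figure D1:**
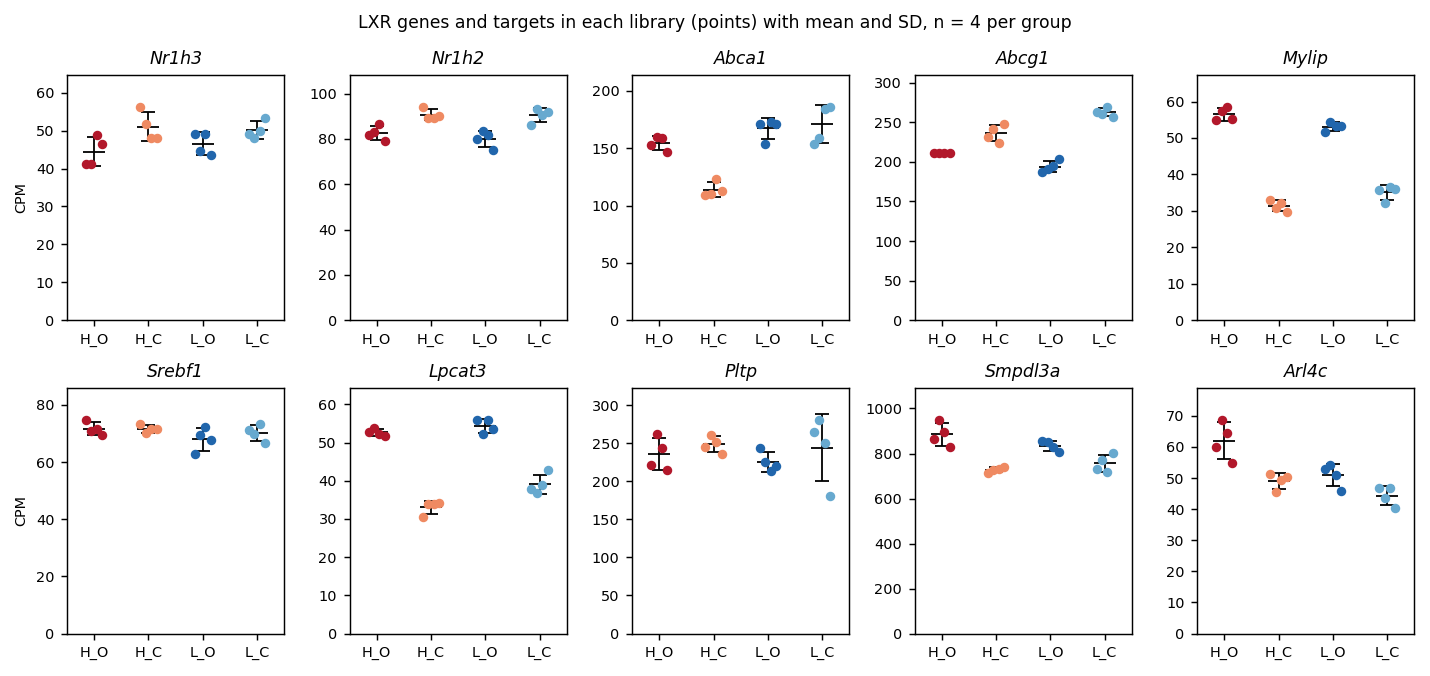
Level of the 10 genes in CPM (y axis, from 0) in each library of H_O, H_C, L_O and L_C (x axis); points are libraries and bars the mean and SD of 4. Mylip lies at 54.9 to 58.6 CPM in H_O and 51.6 to 54.3 CPM in L_O, above 29.8 to 33.1 CPM in H_C and 32.0 to 36.7 CPM in L_C, and Abca1 is lowest in the 4 H_C libraries.

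With ox-LDL in high glucose (H_O against H_C), which asks what the lipoprotein does under high glucose, 5 of the 10 genes were higher and 3 lower, where 21.9% of all tested entries were called, 10.4% higher and 11.5% lower. The median log2 fold change of the 10 genes was 0.14, against 0.01 over all entries. With ox-LDL in low glucose (L_O against L_C), 3 were higher and 2 lower, where 25.8% of all entries were called, 12% higher and 13.8% lower, and the median was -0.04, against 0.00 over all entries. For glucose without ox-LDL (H_C against L_C), none of the 10 was higher and 3 were lower, where 12.8% of all entries were called, 5.02% higher and 7.75% lower, with a median of -0.03 against 0.00 over all entries. For glucose under ox-LDL (H_O against L_O), Arl4c was higher and no other gene was called, where 6.11% of all entries were called, 2.71% higher and 3.39% lower, with a median of 0.07 against 0.00. Called entries split into 1406 higher and 1556 lower in H_O against H_C, 1623 higher and 1867 lower in L_O against L_C, and 679 higher and 1049 lower in H_C against L_C. With library totals alone as the scale these splits turned to 2176 and 1166, 2857 and 1392, and 927 and 841. On that scale 5 of the 10 genes were still higher in H_O against H_C and none was lower.

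**Figure D2:**
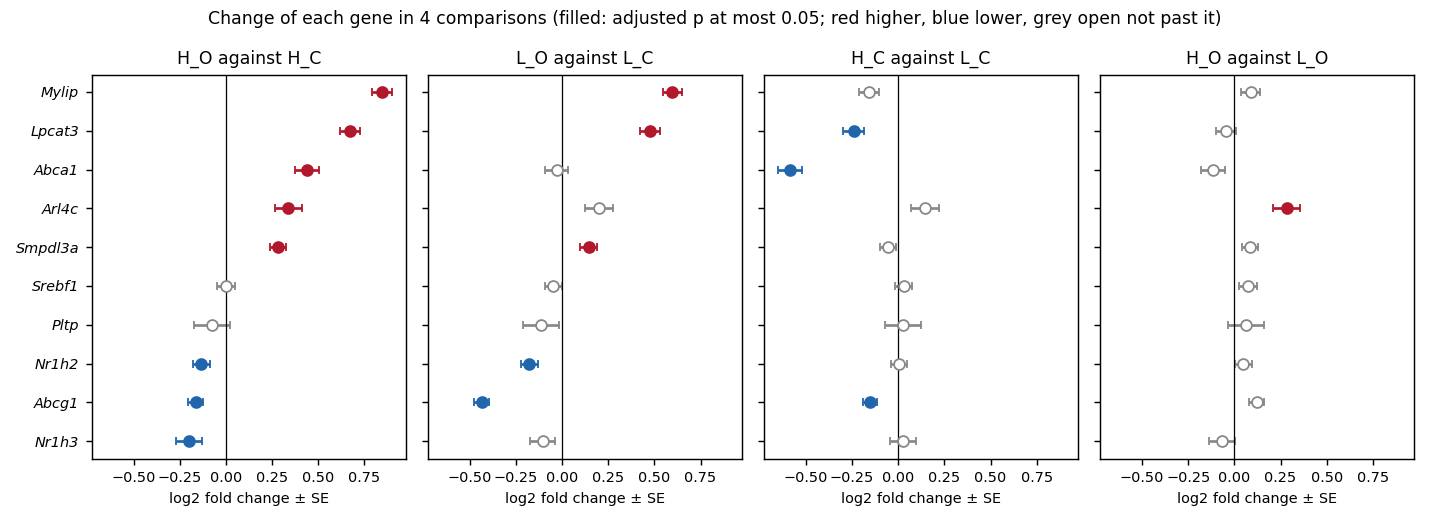
Log2 fold change with its standard error (x axis) of each of the 10 genes (y axis) in H_O against H_C, L_O against L_C, H_C against L_C and H_O against L_O; filled points have an adjusted p of at most 0.05 (red higher, blue lower) and open grey points do not. Mylip is farthest to the right in both ox-LDL comparisons, at 0.84 and 0.60, and Abca1 farthest to the left in H_C against L_C, at -0.59.

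The receptors showed small differences. Nr1h3 encodes LXRα, the form abundant in macrophages, liver and fat (GRCm38, chr2:91184061-91202834, minus strand). Its level was 41.1, 41.3, 48.9 and 46.5 CPM in H_O and 56.3, 51.7, 48.1 and 48.2 CPM in H_C. In low glucose it was 49.1, 44.7, 49.0 and 43.5 CPM in L_O and 49.2, 48.0, 50.0 and 53.4 CPM in L_C. The ranges overlapped in both pairs. The log2 fold change was -0.20 ± 0.070 (SE) in H_O against H_C with an adjusted p of 0.0499, at the threshold, and it passed in 10 of 26 alternative fits, with adjusted p between 0.0229 and 0.180. In L_O against L_C it was -0.11 ± 0.070 (adjusted p = 0.299).

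Nr1h2 encodes LXRβ, the form found in most tissues (chr7:44549616-44553951, minus strand). It had 81.8, 83.1, 86.8 and 79.0 CPM in H_O and 94.3, 89.2, 89.3 and 90.1 CPM in H_C. It had 79.9, 83.5, 81.6 and 75.1 CPM in L_O and 86.3, 93.3, 90.4 and 91.8 CPM in L_C. Every ox-LDL library was thus below every library without it at the same glucose. Ranges were separate, in either direction, for 29.5% of all entries in high and 26.1% in low glucose. The log2 fold change was -0.13 ± 0.046 (adjusted p = 0.0429) in H_O against H_C, which passed in 13 of 26 alternative fits, and -0.18 ± 0.046 (adjusted p = 0.00721) in L_O against L_C. Without scaling beyond library totals the L_O against L_C value was -0.09 and did not pass (adjusted p = 0.127). Neither receptor was called between glucose levels, with log2 fold changes of 0.03 for Nr1h3 and 0.00 for Nr1h2 in H_C against L_C.

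The efflux transporters went apart. Abca1 loads cholesterol and phospholipid onto apolipoprotein A-I at the cell surface (chr4:53030787-53159895, minus strand), and its start region is the first printed above. Its level was 152, 159.7, 159 and 147 CPM in H_O and 109, 110.1, 124 and 113 CPM in H_C. It was 171, 153, 173 and 171 CPM in L_O and 154, 159, 184 and 186 CPM in L_C. H_C thus stood below the other groups with no overlap, while H_O, L_O and L_C overlapped each other. Ranges of H_C were separate from those of H_O for 29.5% of all entries, of L_C for 17.4% and of L_O for 34.9%. Abca1 was higher in H_O than in H_C by 0.44 ± 0.064 on the log2 scale (adjusted p = 4.96e-05) and lower in H_C than in L_C, with a log2 fold change of -0.59 ± 0.064 (adjusted p = 1.32e-05). Both calls held in all 26 alternative fits. In L_O against L_C the value was -0.03 ± 0.064 (adjusted p = 0.784) and turned to 0.01 without L_C replicate 4, and in H_O against L_O it was -0.12 ± 0.064 (adjusted p = 0.340).

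Abcg1 passes cholesterol to high-density lipoprotein and moves sterol within the cell (chr17:31057675-31117988, plus strand). It had 210.7, 210.8, 211.4 and 210.9 CPM in H_O and 231, 242, 224 and 248 CPM in H_C. It had 187, 191, 195 and 203 CPM in L_O and 262, 261, 269.8 and 257 CPM in L_C. The 4 groups did not overlap in any of their 6 pairs, in the order L_C, H_C, H_O and L_O from high to low. Ranges of 4 and 4 libraries were separate for 26.1% of all entries in L_O against L_C, 29.5% in H_O against H_C, 17.4% in H_C against L_C and 17.7% in H_O against L_O, and for 29.1% and 34.9% in the crossed pairs, H_O against L_C and H_C against L_O. Abcg1 fell by 0.44 ± 0.040 (adjusted p = 1.45e-07) on the log2 scale with ox-LDL in low glucose. In high glucose with ox-LDL it fell by 0.16 ± 0.039 (adjusted p = 0.00510), a call lost with library totals alone (-0.10, adjusted p = 0.101). With high glucose alone it fell by 0.15 ± 0.039 (adjusted p = 0.0157), a call lost in 4 of 26 alternative fits, among them those without H_C replicate 1 (adjusted p = 0.0539) and without H_C replicate 3 (adjusted p = 0.0949). In H_O against L_O it was 0.12 ± 0.039 (adjusted p = 0.0825), and passed without L_C replicate 4 (0.12, adjusted p = 0.0223).

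Mylip encodes a ubiquitin ligase, also called IDOL, that marks lipoprotein receptors for breakdown (chr13:45389742-45412022, plus strand). Its level was 54.9, 57.3, 58.6 and 55.1 CPM in H_O and 33.1, 30.8, 32.1 and 29.8 CPM in H_C. It was 51.6, 54.3, 53.4 and 53.2 CPM in L_O and 35.7, 32.0, 36.7 and 36.0 CPM in L_C. All 8 ox-LDL libraries were above all 8 libraries without it. The share of all entries with such a separation was not counted. Pair by pair, ranges of a group with ox-LDL and one without were separate for 26.1% to 34.9% of all entries. Mylip rose by 0.84 ± 0.054 (adjusted p = 1.95e-09) on the log2 scale in H_O against H_C and by 0.60 ± 0.054 (adjusted p = 1.27e-07) in L_O against L_C, and both calls held in all 26 alternative fits. Between glucose levels it was -0.16 ± 0.054 (adjusted p = 0.0639) in H_C against L_C and 0.09 (adjusted p = 0.389) in H_O against L_O. The first of these passed without L_C replicate 2 (adjusted p = 0.0213).

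Srebf1 encodes SREBP-1, the factor that switches on fatty acid synthesis and that LXR induces in liver (chr11:60199089-60222581, minus strand). It had 74.7, 71.0, 71.5 and 69.5 CPM in H_O and 73.4, 70.2, 71.5 and 71.6 CPM in H_C. It had 62.7, 69.3, 72.3 and 67.7 CPM in L_O and 71.3, 69.8, 73.3 and 66.7 CPM in L_C. No pair of groups was separate and no comparison passed, with log2 fold changes of 0.00 ± 0.048 (adjusted p = 0.993) in H_O against H_C and -0.05 ± 0.049 (adjusted p = 0.533) in L_O against L_C. The row sums all transcripts of the gene, so the start with the DR4 match and the other listed starts cannot be told apart.

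Lpcat3 encodes an enzyme that puts polyunsaturated fatty acids into membrane phospholipids (chr6:124663027-124704418, plus strand). Its level was 52.8, 53.9, 52.2 and 51.7 CPM in H_O and 30.5, 33.8, 33.8 and 34.1 CPM in H_C. It was 55.9, 52.4, 55.8 and 53.4 CPM in L_O and 37.8, 36.9, 38.8 and 42.7 CPM in L_C. Like Mylip, it was above in all 8 ox-LDL libraries, and the H_C libraries were below the L_C libraries as well. Ranges of H_C and L_C were separate for 17.4% of all entries. Lpcat3 rose by 0.67 ± 0.056 (adjusted p = 4.83e-08) in H_O against H_C and by 0.48 ± 0.055 (adjusted p = 3.06e-06) in L_O against L_C on the log2 scale. In H_C against L_C it fell by 0.24 ± 0.056 (adjusted p = 0.00761), a call lost when only these 8 libraries were fitted (adjusted p = 0.0763). Emg1, on the other strand, shares 10.2% of the exon bases of Lpcat3, and without a stated strand setting their reads cannot be told apart there. Emg1 itself was higher by 0.28 ± 0.085 in H_O against H_C (adjusted p = 0.0245) and averaged 24.9 CPM in H_O and 20.6 CPM in H_C.

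Smpdl3a encodes a secreted phosphodiesterase related to acid sphingomyelinase and is a known LXR target in human macrophages (chr10:57794335-57811830, plus strand). It had 863, 949, 895 and 831 CPM in H_O and 713, 727, 731 and 739 CPM in H_C. It had 856, 849.5, 827 and 805 CPM in L_O and 731, 770.4, 719 and 803 CPM in L_C. Ranges were separate in both ox-LDL comparisons, with the lowest H_O library at 831 CPM and the highest H_C library at 739 CPM. In low glucose the lowest L_O and the highest L_C library nearly met. Of all entries, 29.5% had separate ranges in H_O against H_C and 26.1% in L_O against L_C. Smpdl3a rose by 0.28 ± 0.045 (adjusted p = 0.000128) on the log2 scale in H_O against H_C. In L_O against L_C it rose by 0.14 ± 0.045 (adjusted p = 0.0246), and this call was lost without replicate 1 of L_C (adjusted p = 0.0674) or 3 of L_C (0.0747), and without replicate 1 of L_O (0.0718) or 2 of L_O (0.0655).

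Arl4c encodes a small GTPase of the ARF family that has been tied to the delivery of cholesterol to ABCA1 in human cells (chr1:88673125-88702221, minus strand). Its level was 59.8, 68.7, 64.5 and 55.0 CPM in H_O and 51.3, 45.4, 49.3 and 50.4 CPM in H_C. It was 52.9, 54.1, 51.1 and 45.8 CPM in L_O and 46.9, 43.5, 46.7 and 40.4 CPM in L_C. The H_O libraries were above all 12 others, narrowly so for L_O, with the lowest H_O library at 55.0 CPM and the highest L_O library at 54.1 CPM. Pair by pair, ranges were separate for 29.5% of all entries in H_O against H_C, 17.7% in H_O against L_O and 29.1% in H_O against L_C. Arl4c rose by 0.34 ± 0.074 (adjusted p = 0.00241) in H_O against H_C on the log2 scale, and by 0.28 ± 0.074 (adjusted p = 0.0276) in H_O against L_O. The H_O against L_O call was lost without H_O replicate 2 (adjusted p = 0.105), H_O replicate 3 (0.0776), L_O replicate 1 (0.0505), L_O replicate 3 (0.0644) or L_O replicate 4 (0.104). In L_O against L_C the value was 0.20 ± 0.074 (adjusted p = 0.0559), and it passed in 7 of 26 alternative fits.

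Pltp encodes the phospholipid transfer protein of plasma lipoproteins (chr2:164839518-164857711, minus strand). It had 222, 262, 244 and 215 CPM in H_O and 245, 261, 252 and 236 CPM in H_C. It had 243, 225, 214 and 219.6 CPM in L_O and 264, 281, 249.9 and 181 CPM in L_C, the lowest of these being replicate 4. All groups overlapped. The log2 fold change was -0.08 ± 0.098 (adjusted p = 0.656) in H_O against H_C and -0.11 ± 0.099 (adjusted p = 0.444) in L_O against L_C. Without L_C replicate 4 the L_O against L_C value was -0.23 ± 0.060 and passed (adjusted p = 0.00596). Ctsa, a lysosomal carboxypeptidase on the other strand, shares 19.3% of the exon bases of Pltp and was at 1546 CPM in H_O, 1779 CPM in H_C, 1636 CPM in L_O and 1958 CPM in L_C on average. Ctsa was lower in L_O than in L_C (-0.26, adjusted p = 0.00199) and in H_O than in H_C (-0.20, adjusted p = 0.0138), so Pltp's own part of its row cannot be told apart.

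Whether the ox-LDL difference depended on glucose was asked by the difference of the log2 fold changes, high minus low glucose. None of the 10 genes passed by edgeR, where 0.0148% of all entries were called (0.00739% higher and 0.00739% lower), and 5 of the 10 had an unadjusted p under 0.05, where 8.58% of all entries did. The largest values were 0.47 ± 0.090 for Abca1 (unadjusted p = 6.70e-05, adjusted p = 0.0774) and 0.27 ± 0.056 for Abcg1 (unadjusted p = 0.000128, adjusted p = 0.0832). For Mylip the difference was 0.25 ± 0.076 (adjusted p = 0.296), for Lpcat3 0.19 (adjusted p = 0.481) and for Smpdl3a 0.14 (adjusted p = 0.561). DESeq2 called Abca1 (adjusted p = 0.000740) and Abcg1 (adjusted p = 0.00211), as did limma-voom with quality weights for libraries. EdgeR called both without L_C replicate 4, at 0.42 for Abca1 (adjusted p = 0.0315) and 0.28 for Abcg1 (adjusted p = 0.0234), and it called Abca1 without L_C replicate 1 (0.52, adjusted p = 0.0328).

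Ratios of a pair of genes in a library do not depend on how libraries are scaled, and ratios were compared in 4 contrasts by exact two-sided permutation tests of 4 against 4 libraries. The smallest p such a test can give is 0.0286, which becomes 0.0416 after Benjamini-Hochberg adjustment over all 16 ratio tests run, and 3 of the ratios are given. The log2 ratio of Abca1 to Abcg1 was -0.45 ± 0.056 in H_O, -1.05 ± 0.13 in H_C, -0.22 ± 0.082 in L_O and -0.63 ± 0.14 in L_C (SD, n = 4). It was higher with ox-LDL by 0.60 in high and 0.41 in low glucose, and with high glucose it was lower by 0.43 without ox-LDL and by 0.24 with it, each at that smallest exact p. The ratio was thus highest in L_O and lowest in H_C. The log2 ratio of Srebf1 to Srebf2, the partner that drives cholesterol synthesis, was -1.04 ± 0.066 in H_O, -1.34 ± 0.012 in H_C, -1.27 ± 0.10 in L_O and -1.62 ± 0.085 in L_C. All 4 contrasts of this ratio, between 0.23 and 0.35, reached the smallest exact p, while Srebf1 itself was called in none. The log2 ratio of Nr1h3 to Nr1h2 averaged -0.90 in H_O, -0.83 in H_C, -0.78 in L_O and -0.85 in L_C, and no contrast of it passed (exact p from 0.200 to 0.714).

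**Figure D3:**
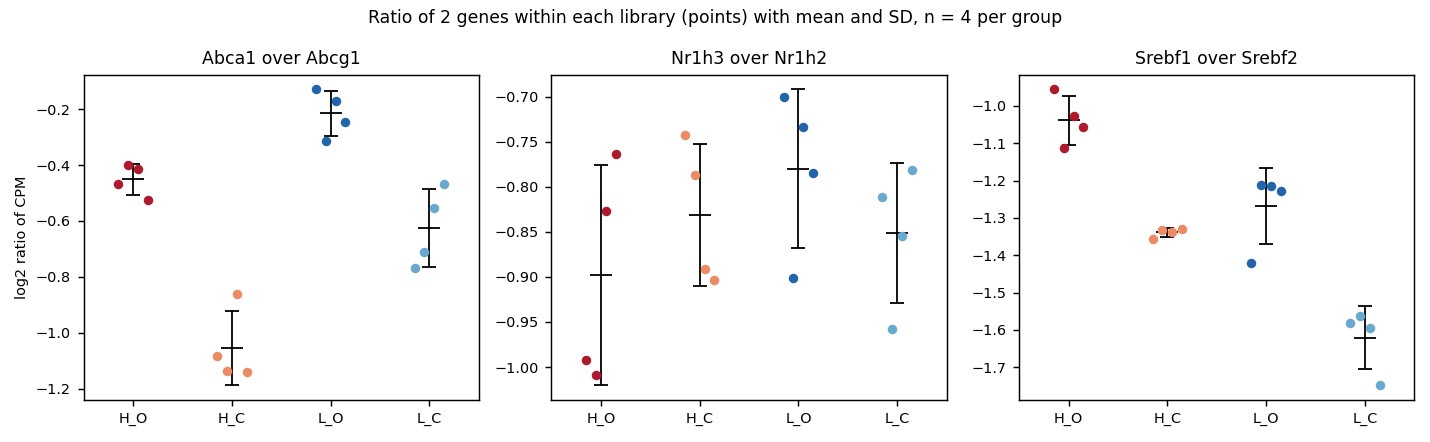
Log2 ratio of the CPM of a pair of genes (y axis, each panel with its own range) in each library of H_O, H_C, L_O and L_C; points are libraries and bars the mean and SD of 4. Abca1 over Abcg1 is at -0.45 in H_O and -0.22 in L_O, above -1.05 in H_C and -0.63 in L_C, and Nr1h3 over Nr1h2 overlaps in all groups.

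Levels of different genes were set side by side per kilobase of exon, from the exon length in the GENCODE M21 annotation. The medians over 16 libraries were 389 CPM per kilobase for Smpdl3a, 95.1 for Pltp, 29.9 for Abcg1, 25.8 for Nr1h2, 19.3 for Nr1h3, 15.1 for Abca1, 14.4 for Lpcat3, 13.6 for Mylip, 12.6 for Srebf1 and 9.24 for Arl4c. Smpdl3a, at 345 to 459.8 CPM per kilobase, was separate from every other gene, and so was Pltp, at 70.6 to 109.5. Abcg1 and Nr1h2 overlapped in range, and so did each later pair of neighbours in that order. Nr1h2, the receptor of most tissues, was higher in median than Nr1h3 per length in these macrophages, with ranges of 22.4 to 28.1 and 16.3 to 22.4 CPM per kilobase that met at their edges.

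**Figure D4:**
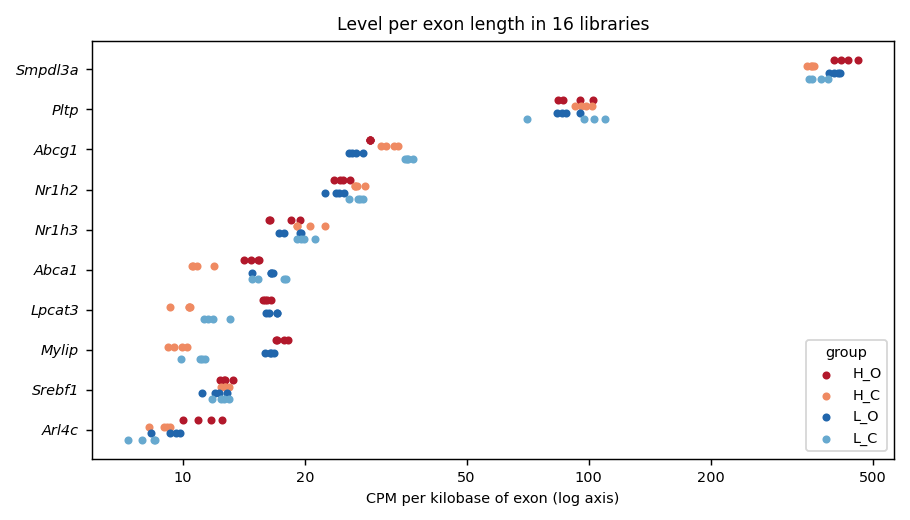
Level of the 10 genes in CPM per kilobase of exon (x axis, log scale) in each of the 16 libraries, coloured by group. Smpdl3a (345 to 459.8) and Pltp (70.6 to 109.5) lie to the right of the other 8 genes, and Abca1, Lpcat3 and Mylip change places between groups.

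Genes whose pattern over the 16 libraries was most like that of a member were looked for among 8671 genes whose log2 CPM averaged 3 or more, for the members whose group means spanned at least 0.5 on the log2 scale. The measure was the root mean square difference of centred log2 CPM, and small values mean like patterns. Nearest to Abca1 were the complement gene C1qb (0.0935), the actin-binding Cotl1 (0.0998) and the tropomyosin Tpm3 (0.107). Nearest to Mylip were Pid1 (0.0804), the survival factor Bcl2l1 (0.0831) and Tm6sf1 (0.0970). Nearest to Lpcat3 were the growth factor Igf1 (0.0561), the proline synthesis enzyme Aldh18a1 (0.0608) and Itsn1 (0.0752). Measured over the 4 group means, Igf1 and Aldh18a1 were again the nearest to Lpcat3, while Nlrp3, Papss2 and Snrpa were nearest to Abca1 and Itpr3, Acot7 and Ms4a6d to Mylip.

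Other genes of the pathway were read from 6 lists, none of which was tested as a set. Of all entries, 21.9% were called in H_O against H_C, 25.8% in L_O against L_C, 12.8% in H_C against L_C and 6.11% in H_O against L_O. Counts in several lists were near or below these shares. Of 18 further LXR targets, many of them lipid synthesis genes, 14 were tested. With ox-LDL in high glucose 2 of these were higher and 8 lower (median log2 fold change -0.32, against 0.01 over all entries), and in low glucose 1 was higher and 9 lower (median -0.49, against 0.00). Scd2, a desaturase that makes monounsaturated fatty acids, averaged 54.2 ± 1.6 CPM in H_O, 83.5 ± 9.7 in H_C, 56.5 ± 3.4 in L_O and 128 ± 25 in L_C (SD, n = 4). Fasn and Acsl3, which carry the same DR4 letters as Abca1 and Srebf1, were lower in both ox-LDL comparisons. Fasn had log2 fold changes of -0.49 ± 0.096 (adjusted p = 0.00103) in H_O against H_C and -0.92 ± 0.097 (adjusted p = 1.12e-06) in L_O against L_C. Acsl3 had log2 fold changes of -0.46 ± 0.11 (adjusted p = 0.00541) and -0.49 ± 0.11 (adjusted p = 0.00280) in the same comparisons. Thus of the 4 genes with the motif and clear reads, Abca1 was higher or not called, Srebf1 not called, and Fasn and Acsl3 lower with ox-LDL. The other tested gene with it, Prrg4, had -1.62 in H_O against H_C (adjusted p = 0.0844) and -1.39 in L_O against L_C (adjusted p = 0.170). Apoe, the apolipoprotein that carries cholesterol away from macrophages, was lower with ox-LDL (-0.30 ± 0.043, adjusted p = 3.92e-05, in H_O against H_C) and higher with high glucose (0.42 ± 0.043, adjusted p = 6.62e-06, in H_C against L_C). Cd5l, a secreted survival protein of macrophages, was the opposite, at 1.22 ± 0.15 (adjusted p = 9.83e-06) and -0.88 ± 0.15 (adjusted p = 0.000957) in these comparisons. For glucose, 3 of the 14 were higher and 5 lower without ox-LDL, and 4 were higher and 2 lower with it.

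Of the 16 partners and cofactors of LXR, 15 were tested. In H_O against H_C 2 were higher and 3 lower, where 21.9% of all entries were called. In L_O against L_C 1 was higher and 4 lower, where 25.8% of all entries were called. Rxra, a retinoid X receptor that pairs with LXR, was higher with ox-LDL at both glucose levels. The log2 fold changes were 0.24 ± 0.058 (adjusted p = 0.00563) in high and 0.35 ± 0.058 (adjusted p = 0.000159) in low glucose. Rxra and Nr1h2 were thus called in opposite directions. Rxrb, the other retinoid X receptor tested, did not go with Rxra. It averaged 43.9 ± 1.2 CPM in H_O and 48.8 ± 1.0 in H_C (SD, n = 4). In low glucose it averaged 37.0 ± 2.8 CPM in L_O and 38.2 ± 7.6 in L_C. Tbl1xr1, which exchanges corepressors for coactivators, was lower in both ox-LDL comparisons (-0.25 ± 0.043 and -0.28 ± 0.043). For glucose 2 were higher and none was lower without ox-LDL, and none was called with it, where 12.8% and 6.11% of all entries were called. Of 9 enzymes that make or break oxysterols, 6 were tested, and in each ox-LDL comparison none was higher and 2 were lower. Cyp27a1, which makes 27-hydroxycholesterol, had log2 fold changes of -0.40 ± 0.074 (adjusted p = 0.000549) in H_O against H_C and -0.36 ± 0.074 (adjusted p = 0.00125) in L_O against L_C. With high glucose 1 of the 6 was lower without ox-LDL and none was called with it. Ch25h, the maker of 25-hydroxycholesterol, was low, at 0.17 to 0.34 CPM in group means.

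Of 10 Mylip substrates and regulators of sterol synthesis 9 were tested, and in each ox-LDL comparison 1 was higher and 5 were lower. The gene that was higher was the Mylip substrate Lrp8, at 1.59 ± 0.13 (adjusted p = 2.74e-08) in H_O against H_C and 1.48 ± 0.12 (adjusted p = 6.15e-08) in L_O against L_C. Srebf2 averaged 147 ± 4.3 CPM in H_O, 181 ± 4.8 in H_C, 164 ± 4.8 in L_O and 216 ± 8.0 in L_C (SD, n = 4). It fell by 0.30 ± 0.040 (adjusted p = 1.95e-05) in H_O against H_C and by 0.40 ± 0.040 (adjusted p = 5.32e-07) in L_O against L_C on the log2 scale. Insig1, which holds SREBP in the endoplasmic reticulum, fell by 0.66 ± 0.048 (adjusted p = 9.01e-09) and by 0.67 ± 0.048 (adjusted p = 7.47e-09) there. In each glucose comparison 4 of the 9 were lower and none was higher, Srebf2 and Sqle in both.

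Of 14 genes of the cholesterol ester cycle and of sterol transport, all tested, 1 was higher and 4 were lower in H_O against H_C, and 3 were higher and 4 lower in L_O against L_C. Soat1, which esterifies cholesterol for storage, fell by 0.28 ± 0.032 (adjusted p = 2.95e-06) and by 0.17 ± 0.032 (adjusted p = 0.000572) there on the log2 scale. Gramd1b, which carries cholesterol from the plasma membrane to the endoplasmic reticulum, was higher in both (0.46 ± 0.063 and 0.26 ± 0.063). For glucose in this list, 1 was higher and 2 lower without ox-LDL, and 2 were higher and 2 lower with it. Abca7, a close relative of Abca1, was higher with high glucose, by 0.66 ± 0.094 (adjusted p = 0.000145) in H_C against L_C, where Abca1 was lower. Of 17 other relatives of the members 15 were tested, with 2 higher and 3 lower in H_O against H_C and 1 higher and 2 lower in L_O against L_C. The shares of all entries called there were 21.9% and 25.8%. The phospholipid acyltransferases Lpcat1 (-0.44 ± 0.081 and -0.52 ± 0.081) and Mboat7 (-0.44 ± 0.058 and -0.49 ± 0.058) were lower in both comparisons in which Lpcat3 was higher. Abcg3, a transporter of rodents, was higher with ox-LDL (1.60 ± 0.11 and 1.43 ± 0.11), where Abcg1 was lower. In this list none was higher and 2 were lower in H_C against L_C, and 1 was higher and 2 lower in H_O against L_O. None of the 6 lists had a gene past the threshold by edgeR for the glucose dependence of the ox-LDL difference.

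**Figure D5:**
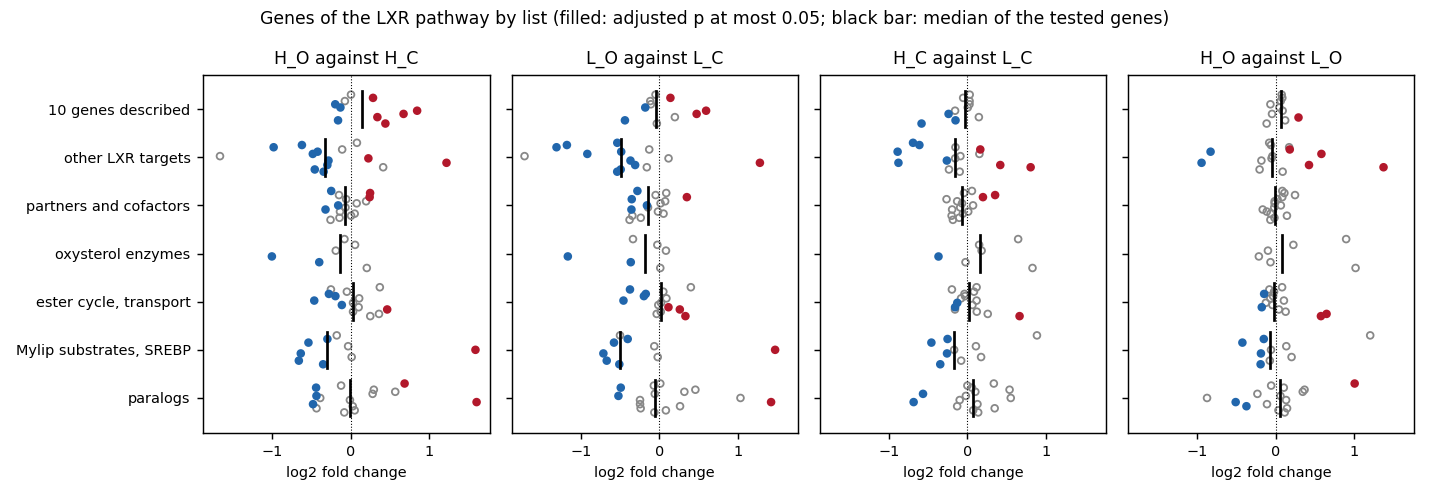
Log2 fold change (x axis) of the tested genes of 7 lists (y axis) in H_O against H_C, L_O against L_C, H_C against L_C and H_O against L_O; filled points have an adjusted p of at most 0.05 (red higher, blue lower), open grey points do not, and black bars are medians. The further LXR targets lie mostly to the left of 0 with ox-LDL, with medians of -0.32 and -0.49, while the 10 genes described lie on both sides, with medians of 0.14 and -0.04.

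Markers of macrophage subsets moved with ox-LDL and with glucose beside these genes. Of 8 large peritoneal macrophage markers 6 were lower in each ox-LDL comparison, 2 in H_C against L_C and 1 in H_O against L_O. Their sum lay at 504 to 547 CPM in H_O, 786 to 838 in H_C, 513 to 560.1 in L_O and 673 to 883 in L_C. Most of it was Cd9 (group means of 429 to 607 CPM), while Gata6, Timd4 and Selp averaged at most 4.51 CPM in any group. Of 7 markers of small peritoneal macrophages or of monocytes 3 were lower in H_O against H_C, 5 in L_O against L_C, 3 in H_C against L_C and 2 in H_O against L_O. Their sum lay at 365 to 407 CPM in H_O, 761 to 795 in H_C, 481 to 525 in L_O and 990.1 to 1065 in L_C. Nearly all of it was Itgax (group means of 291 to 767 CPM) and Clec12a (83.3 to 243 CPM). Where Abca1, Lpcat3 and Abcg1 were lower, in H_C against L_C, the subset markers that were lower were Timd4 (-1.39), F5 (-0.47), Ccr2 (-0.80), Clec12a (-0.56) and Itgax (-0.36). No subset marker was higher in these 4 comparisons. Of all entries, 11.5% were lower in H_O against H_C, 13.8% in L_O against L_C, 7.75% in H_C against L_C and 3.39% in H_O against L_O.

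Sums for other cell types were small, and several also differed between groups. The eosinophil sum, from Siglecf and Ccr3, lay at 4.70 to 5.76 CPM in H_O and 19.7 to 23.6 in H_C, and at 3.69 to 4.98 in L_O and 14.2 to 20.7 in L_C. The neutrophil sum lay at 5.72 to 6.57 CPM in H_O and 6.14 to 8.30 in H_C, and at 5.27 to 6.83 in L_O and 10.7 to 13.0 in L_C. The dendritic cell sum lay at 1.26 to 1.66 CPM in H_O and 2.41 to 3.51 in H_C, and at 0.839 to 2.20 in L_O and 3.25 to 4.50 in L_C. These 3 sums were thus lower with ox-LDL without overlap, except the neutrophil sum in high glucose. They rest on few genes. The eosinophil sum was nearly all Siglecf, and Epx, Prg2 and Ear1 had no row, nor did Ly6g and Elane of the neutrophil list. The neutrophil gene Mmp9 averaged 6.00 CPM in L_C and 1.47 CPM in L_O. S100a8 went the other way, uncalled, with log2 fold changes of 0.40 in H_O against H_C and 0.17 in L_O against L_C. The mesothelial and fibroblast sum lay at 22.2 to 70.8 CPM in H_O and 18.5 to 122 in H_C, which overlap, and at 11.5 to 21.3 in L_O and 27.7 to 44.2 in L_C, which do not. The sums of B cell, T and NK cell, erythroid and platelet, and mast cell and basophil markers were at most 2.36, 9.16, 18.2 and 0.290 CPM in any library. The part of these cells and subsets in the differences of the 10 genes was not tested.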

How the data were processed

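RNA was measured in 16 samples, 4 in each of H_O, H_C, L_O and L_C, and groups were taken from the labels. The authors deposited a table of read counts per gene, whole numbers with different totals per library (32596640 to 41712885), which were used as counts without further change. Per the submitters' processing notes, HISAT2, DESeq2 and the build mm10 were used in ways and versions that are not specified. Which counter, annotation and strand setting were used is not given in the sources used here. Of 15871 entries, 1594 are unannotated regions, and 2344 were not tested.

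Tests used edgeR 4.0.16 in R 4.3.3 (glmQLFit and glmQLFTest, TMM factors, filterByExpr by group, a mean per group, all 16 libraries with 12 residual degrees of freedom). Benjamini-Hochberg adjustment ran over 13527 tested entries, with a threshold of 0.05. Log2 CPM used a prior count of 2. The test was also run on counts simulated from the fitted spread, and the outcome is not reported here. The simulation held no library like L_C replicate 4, so it cannot show how the test behaves with one. Replicates of a group differed by more than sampling noise, so none was taken as a second count of the same library. This cannot show whether they are separate mice or cultures. The chi-square per degree of freedom was 93.9 to 97.5 in pairs with L_C replicate 4 and 6.48 to 18.5 in the other pairs. Exact permutation tests used scipy 1.17.1. Coordinates and exon lengths are from GENCODE M21 (GRCm38), 1-based, and start regions from RefSeq (GRCm38.p6).

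The members, lists, rule for named genes and alternatives were chosen with earlier results of these data known. All 10 members are described, and of each other list up to 6 genes with the smallest adjusted p, plus Srebf2, Scd1, Scd2, Apoe, Rxra, Soat1, Ch25h and Cyp27a1, were open to naming, some of which are not reported here. Acsl3 and Prrg4 were named for their DR4 letters, Emg1 and Ctsa for their overlap, and Rxrb as the other retinoid X receptor tested. Alternatives were other size factors (RLE, upper quartile, none), other count filters (none, or 1 CPM in 4 libraries or more), DESeq2 1.42.0, limma 3.58.1 voom with and without quality weights, a block for the replicate number, separate fits of the 8 libraries compared, and leaving out each library in turn.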

Additional observations from a re-analysis of the deposited data

Results flagged for a closer look

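In 40 groups of 4 libraries (10 genes in 4 groups), 2 values lay far from the other 3 of their group, where chance gives about 1 in 20. Abca1 in L_O replicate 2 was at 153 CPM, the lowest of its group, where the others lay between 171 and 173 CPM. Lpcat3 in H_C replicate 1 was at 30.5 CPM, the lowest of its group, where the others lay between 33.8 and 34.1 CPM. Without L_O replicate 2 the log2 fold change of Abca1 in L_O against L_C was 0.01, in place of -0.03, and did not pass.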

How the results depend on the processing

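Over 26 alternative fits, these calls held in all: Mylip, Lpcat3, Abca1, Arl4c and Smpdl3a in H_O against H_C, Mylip, Lpcat3 and Abcg1 in L_O against L_C, and Abca1 in H_C against L_C. With library totals alone, 5 of the 10 genes were called in H_O against H_C, against 8, and the median log2 fold change of all entries was 0.07 there and 0.09 in L_O against L_C. Fitting only the 8 libraries compared gave 1 of the 10 genes, against 3, and 914 entries, against 1728, in H_C against L_C. In H_O against L_O it gave 2 genes, against 1, and 1619 entries, against 826. DESeq2 and voom with quality weights also called 2 genes there, voom with weights calling 1846 entries, and leaving out a library gave 0 to 2 genes and 526 (without L_O replicate 1) to 1763 entries (without L_C replicate 4). For the glucose dependence of the ox-LDL difference, 2 entries were called by edgeR, 95 by DESeq2, 0 by voom and 75 by voom with quality weights, the 10 genes giving 2 by DESeq2 and 2 by voom with weights. Leaving out a library gave 0 to 2 genes and 0 to 53 entries. The cause of these shifts was not tested.

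Values that changed sign were all small and not called. Abca1 in L_O against L_C turned to 0.056 with library totals alone and to 0.020 with voom weights, and leave-outs gave -0.077 to 0.015. Srebf1 there turned to 0.038 with library totals alone. Srebf1 in H_O against H_C turned to -0.0074 with RLE factors and with DESeq2, -0.012 with the CPM filter and -0.00050 with 8 libraries, and leave-outs gave -0.019 to 0.016. In H_C against L_C leave-outs gave -0.025 to 0.065 for Nr1h3 and -0.018 to 0.023 for Nr1h2. Pltp there, at 0.027 in the main fit, turned to -0.080 with voom weights, and leave-outs gave -0.093 (without L_C replicate 4) to 0.1. The Pltp difference between glucose levels lay between -0.037 and 0.16 in leave-outs.

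No pairing of the libraries by replicate number was detected: over 24 same-number pairs the correlation of deviations lay between -0.16 and 0.10, 2 of them above 0.1, and 3 of 16 libraries were nearest to one with their own number. The labels do not say whether the numbers pair libraries, and weak pairing could be missed. With the number as a replicate block 0 entries were called for the glucose dependence, against 2. Of the 3 ratios given, Nr1h3 over Nr1h2 in H_C against L_C, 0.020, turned to -0.0093 without H_C replicate 1 and -0.015 without L_C replicate 2, and the other directions did not change without any library, with a prior count of 0.5 or with the numbers as pairs. Tests of 4 pairs cannot go below an exact p of 0.125 and those of 3 against 4 not below 0.0571.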
